A study of Mus musculus with 18 samples.

Results

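The S100 genes encode small calcium-binding proteins, and 10 of them (S100a1, S100a4, S100a6, S100a8, S100a9, S100a10, S100a11, S100a13, S100a14 and S100a16) were chosen by symbol among the 35642 gene symbols measured. Expression was read from polyA RNA of untreated cultured mouse pancreatic tumour cells, in 18 libraries that form 6 groups of 3. All cells came from KPCY mice, which carry Trp53 with a Cre-activated R172H allele, Pdx1-Cre (Cre recombinase under a promoter active in pancreatic progenitors) and a homozygous Cre-activated Yfp reporter at R26. The study compared isogenic cells that do or do not express Mcu, which encodes the channel of the uniporter that lets calcium into mitochondria.

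In line 1151, Mcu had been removed by Cre, and the cells carried an empty vector (1151 KO) or re-expressed MCU (1151 MCU), both kept in puromycin. In line 2838, clones 42 and 17 were labelled CRISPR knockouts of Mcu (KO42 and KO17), and clones 22 and 15 were labelled Mcu wild type with an empty vector (WT22 and WT15). Each 2838 group is a single clone, and the labels name no empty vector for the knockout clones. The labels put the 1151 libraries in batch 1 and those of 2838 in batch 2, so differences of level between the lines cannot be told apart from batch and are given as a description. The labels do not state whether a group's libraries were grown as separate cultures, and the p-values may therefore reflect technical spread alone.

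The deposited values were TPM, transcript abundances scaled to a fixed total per library, which correct for transcript length and say nothing of read depth, which was unknown here. Per library, 10760 to 11507 genes were at 1 TPM or above, the fewest in WT22 replicate 3, which also had the lowest upper quartile (3.73 TPM, against a median of 6.99 TPM over the 18 libraries). Mcu RNA did not follow the labels throughout: it was 16.6, 15.1 and 13.3 TPM in 1151 KO, against 14.4, 15.2 and 13.1 TPM in 1151 MCU. In 2838 it was 12.3, 10.5 and 11.5 TPM in KO42 but 120, 122 and 113 TPM in KO17, against 94.4, 96.3 and 59.3 TPM in WT22 and 68.4, 81.2 and 76.0 TPM in WT15. The RNA of Mcu was thus low only in KO42 of the knockout-labelled 2838 clones, and did not separate the 1151 groups, so "KO" below is the label of a library. MCU protein was not measured here, and the level of Mcu RNA alone does not show whether a library lacked it. As a check of cell type, 10 epithelial markers summed to 4877 to 7444 TPM per library, while each of 10 fibroblast markers stayed under 1 TPM in every library and their sum reached at most 1.05 TPM. Of the epithelial markers, 9 reached 1 TPM in some library of 1151 KO, 7 in 1151 MCU and 8 in each 2838 group. Cldn4 averaged 6.15 TPM in 1151 KO, 0.259 TPM in 1151 MCU and 0.0289 to 0.720 TPM in the 2838 groups.

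S100 proteins are EF-hand proteins that mostly form dimers and, on binding calcium, expose a surface through which they hold target proteins such as annexins, myosin and p53. Inside cells they take part in membrane repair, cytoskeletal movement and calcium handling, and some are released and act on receptors such as RAGE (encoded by Ager) and TLR4. S100P, S100A4 and S100A6 have long been studied in human pancreatic cancer, and S100a8 with S100a9 forms calprotectin, a product of neutrophils and other myeloid cells.

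All 10 genes lie on chromosome 3 (mm10, GENCODE M21). From S100a1 to S100a9, 12 S100 genes, 8 of them among the 10 studied, stand within 185 kb, and S100a11 (93520488 to 93526287, plus strand) begins 2.82 Mb beyond S100a9, with S100a10 (93555080 to 93564643, plus strand) next to it. Between these ends lies the epidermal differentiation complex, a cluster of cornified envelope genes. S100a1 (90511034 to 90514392, minus strand) and S100a13 (90514435 to 90524581, plus strand) are arranged head to head, with starts 43 bases apart in that annotation and 105 bases apart in RefSeq. Their RefSeq promoter windows (250 bases before to 50 after a start) overlap by 204 bases, so a single stretch of DNA is shown for this pair, which fell together in 1151. Promoters are also shown for S100a4 (90603771 to 90606045, plus strand), which of the 10 differed most between the wild-type clones, and for S100a7a (90654017 to 90658669, plus strand), a family gene outside the 10 that went the other way in 1151. Capitals in the S100a13 sequence mark the bases between the RefSeq starts of S100a1 and S100a13, in that of S100a4 the letters TATAAA, and in that of S100a7a the letters CATTCC or their reverse complement GGAATG. All are RefSeq sequence of GRCm38.p6, written on the plus strand from 5′ to 3′.
S100a13 and S100a1, chr3:90514185-90514484, plus strand: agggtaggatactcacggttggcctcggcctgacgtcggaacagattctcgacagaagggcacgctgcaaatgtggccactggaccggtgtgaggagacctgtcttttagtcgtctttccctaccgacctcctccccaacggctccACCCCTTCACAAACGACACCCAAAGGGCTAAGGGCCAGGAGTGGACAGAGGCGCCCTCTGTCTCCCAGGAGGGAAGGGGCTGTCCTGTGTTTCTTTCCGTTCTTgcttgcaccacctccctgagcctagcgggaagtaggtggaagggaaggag
S100a4, chr3:90603520-90603819, plus strand: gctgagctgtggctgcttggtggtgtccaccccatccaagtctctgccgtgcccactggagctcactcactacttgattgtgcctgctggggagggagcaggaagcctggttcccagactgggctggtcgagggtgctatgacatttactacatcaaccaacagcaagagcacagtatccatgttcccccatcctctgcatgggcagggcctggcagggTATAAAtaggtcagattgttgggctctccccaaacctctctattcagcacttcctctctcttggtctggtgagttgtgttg
S100a7a, chr3:90654052-90654351, plus strand: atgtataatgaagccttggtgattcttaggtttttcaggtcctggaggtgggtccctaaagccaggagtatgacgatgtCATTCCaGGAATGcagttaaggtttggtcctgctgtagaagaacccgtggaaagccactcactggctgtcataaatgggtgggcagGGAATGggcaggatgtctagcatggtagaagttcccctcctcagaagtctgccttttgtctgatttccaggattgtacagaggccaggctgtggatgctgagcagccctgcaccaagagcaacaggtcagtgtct
In the S100a4 window TATAAA begins 31 bases before the start. In the S100a7a window the CATTCC letters, the core bound by TEAD factors, begin 171, 164 and 85 bases before the RefSeq start. The GENCODE model of S100a7a starts at 90654017, ahead of this whole window, which begins at 90654052. In that annotation the letters therefore lie inside the gene model and not before its start. On either strand, CATTCC occurred in 14.7% of the 32851 promoters of the table and in none of the 9 promoters listed for 8 of the 10 genes. TATAAA, the TATA box, occurred in 13.6% of all promoters and in those of S100a4, S100a8 and S100a9. TGANTCA, the AP-1 motif, occurred in 7.81% of all promoters and in those of S100a11 and S100a16, and GGGCGG, the GC box, in 35.7% and in those of S100a11, S100a16 and S100a9. These are matches of letters and say nothing about which factors were bound, and no motif searched contains another. S100a10 and S100a14 had no entry in the promoter table.

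The S100 genes were among the most abundant RNAs of these cells. Together the 10 genes made up 1.26% to 3.11% of all TPM in a library, with a median of 1.97%. S100a6, called calcyclin, which binds annexins and other targets, alone made up 0.716% to 2.09%, and ranked between first and 10th among all genes, being the most abundant gene of the table in WT22 replicate 3. S100a6, S100a11 and S100a10 supplied 94.0% to 96.1% of the summed level in each library. The order S100a6, S100a11, S100a10 held in all 6 groups with no overlap between neighbours in this order. Below them came S100a4, S100a1, S100a13 and S100a16 at 84.9 to 644 TPM, whose order changed from group to group: S100a1 and S100a13 overlapped in 1151 KO, 1151 MCU, KO42 and WT22 and did not in KO17 or WT15.

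The summed level was 12602 to 13553 TPM in 1151 KO, against 20888 to 22277 TPM in 1151 MCU. In 2838 it was 20579 ± 707 TPM in KO42 and 19379 ± 1072 TPM in KO17, against 22830 ± 7209 TPM in WT22 and 15112 ± 1142 TPM in WT15 (SD, n = 3 each). The wide error of WT22 came from replicate 3, at 31105 TPM, the highest of all 18 libraries. In bulk RNA, fewer cells of a kind and less RNA per cell cannot be told apart.

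**Figure D1:**
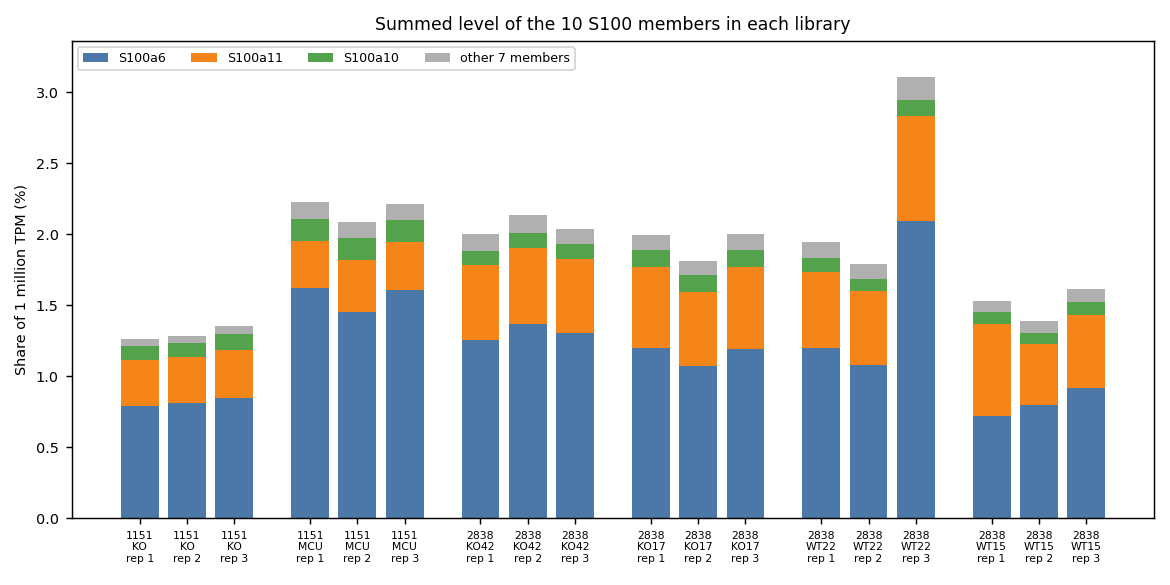
Summed level of the 10 S100 genes in each of the 18 libraries, as a percentage of all TPM, stacked as S100a6, S100a11, S100a10 and the other 7. The 1151 KO libraries stand lowest, and WT22 replicate 3 stands above all others at 3.11%.

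The first comparison set 1151 KO cells against 1151 MCU cells. S100a13, S100a1, S100a16, S100a6, S100a10 and S100a4 fell in the KO cells (limma, adjusted p under 0.05), which is 6 of the 8 genes that passed the filter on low values, and 0 rose. Among all 11630 genes tested, 61.0% were called in either direction, 34.0% higher and 27.0% lower, so a call is common here, and the S100 count is to be read against that. The 8 genes had a median log2 fold change of -0.80, against 0.055 over all genes and -0.02 over the 560 genes tested on chromosome 3.

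Among the calcium-handling and export partners, S100a1, best known from muscle where it acts on the calcium pump and release channels, had 141, 144 and 129 TPM in 1151 KO libraries, against 362, 324 and 332 TPM in 1151 MCU libraries. Every KO library lay far below every MCU library, a 2.46-fold lower mean (log2 fold change of TPM + 1 of -1.29, SE 0.067, adjusted p = 9.56e-06). S100a13, its head-to-head neighbour and a carrier in the release of FGF1, had 84.9, 110 and 152 TPM in 1151 KO, against 323, 303 and 332 TPM in 1151 MCU. The KO libraries of S100a13 were spread among themselves but did not reach the MCU libraries, and the mean was 2.76-fold lower (log2 fold change -1.50, SE 0.19, adjusted p = 5.19e-04). S100a16, a widely expressed member of the family, had 105, 115 and 127 TPM in 1151 KO, against 260, 255 and 242 TPM in 1151 MCU. Its groups stood apart by more than the spread of either (2.18-fold lower; log2 fold change -1.12, SE 0.077, adjusted p = 3.03e-05).

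Of the annexin-binding genes, S100a6 had 7871, 8133 and 8491 TPM in 1151 KO, against 16228, 14495 and 16077 TPM in 1151 MCU. Again no KO library came near an MCU library (1.91-fold lower; log2 fold change -0.93, SE 0.11, adjusted p = 3.06e-04). S100a10, or p11, which does not itself need calcium and forms a tetramer with annexin A2, had 953, 941 and 1124 TPM in 1151 KO, against 1568, 1601 and 1584 TPM in 1151 MCU. The MCU libraries were tightly grouped and lay above the KO libraries (1.57-fold lower in KO; log2 fold change -0.66, SE 0.084, adjusted p = 5.10e-04). S100a11, the partner of annexin A1, had 3284, 3248 and 3380 TPM in 1151 KO, against 3294, 3667 and 3352 TPM in 1151 MCU. The groups overlapped, and the log2 fold change of -0.06 had a 95% interval of -0.24 to 0.13 (adjusted p = 0.567).

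S100a4, also named metastasin, which binds the non-muscle myosin heavy chain Myh9, had 154, 164 and 147 TPM in 1151 KO, against 236, 238 and 242 TPM in 1151 MCU. The groups did not overlap and the mean was 1.54-fold lower (log2 fold change -0.62, SE 0.056, adjusted p = 1.04e-04). S100a4 overlaps the gene model Gm42674 on the same strand, so its reads could be split between them. S100a14, an epithelial member, had 5.88, 6.46 and 3.31 TPM in 1151 KO, against 5.29, 6.54 and 4.55 TPM in 1151 MCU. These ranges overlapped widely (log2 fold change -0.08, 95% interval -0.62 to 0.45, adjusted p = 0.767).

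**Figure D2:**
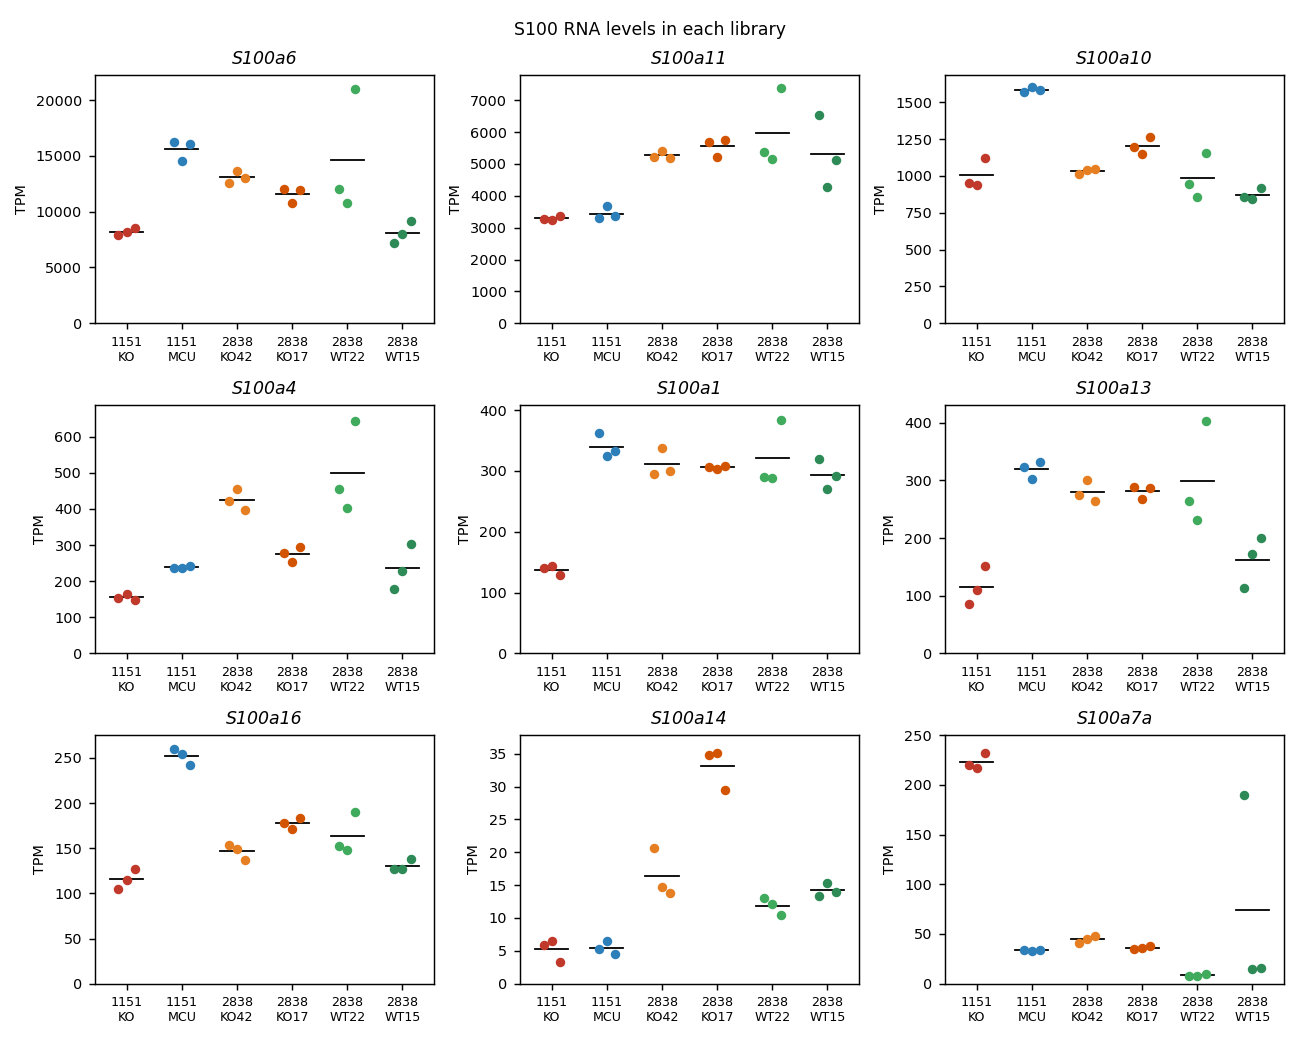
TPM of 8 of the 10 S100 genes and of S100a7a in each library, with 1 point per library and a line at the group mean, for the groups 1151 KO, 1151 MCU, KO42, KO17, WT22 and WT15. The 1151 KO points of S100a6, S100a10, S100a4, S100a1, S100a13 and S100a16 lie below all 1151 MCU points, S100a14 is highest in KO17, and S100a7a is highest in 1151 KO.

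The 6 calls in 1151 held in all 14 alternatives run, which include leaving out each of the 6 libraries, with log2 fold changes between -1.71 and -0.55. The labels name no clones or separate derivations in 1151, so the KO cells and the MCU cells are each taken as a single population. A difference between populations that arose after they were separated then cannot be told apart from an effect of MCU. Summed markers of other cells also moved in this comparison: endothelial markers summed to 17.7 to 18.9 TPM in 1151 KO, against 35.9 to 38.0 TPM in 1151 MCU, and keratinocyte markers to 2.34 to 5.48 TPM in 1151 KO, against 1.00 to 1.13 TPM in 1151 MCU. The endothelial sum rested on Egfl7 (9.66 TPM in 1151 KO, against 31.3 TPM in 1151 MCU), Cdh5 (0.00568 TPM in 1151 KO, against 4.93 TPM in 1151 MCU) and Kdr, which went the other way (8.51 TPM in 1151 KO, against 0.767 TPM in 1151 MCU). Pecam1, Tek and Tie1 were under 1 TPM throughout. The keratinocyte sum rested on Sbsn (3.70 TPM in 1151 KO, against 0.959 TPM in 1151 MCU). It was the 1 marker of 10 that reached 1 TPM in 1151 KO, and 0 did so in 1151 MCU. Myeloid markers summed to 2.26 to 3.85 TPM in 1151 KO, against 1.93 to 1.95 TPM in 1151 MCU, and the epithelial sums of the groups overlapped. Single epithelial markers moved in both directions: of 8 tested, 4 were higher and 3 lower, against 34.0% and 27.0% of all genes. Krt7 was higher (237 TPM in 1151 KO, against 39.1 TPM in 1151 MCU) and Krt19 was lower (385 TPM in 1151 KO, against 826 TPM in 1151 MCU). The part of these markers in the S100 differences was not tested.

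The calprotectin genes were at the floor. S100a8 had 2.75, 0.273 and 0 TPM in 1151 KO, against 2.25, 0.708 and 0.545 TPM in 1151 MCU, and between 0 and 1.50 TPM in the 12 libraries of 2838. S100a9 was listed at 0 in all 6 libraries of 1151, had 0.947, 0 and 0.276 TPM in KO42 and 0, 0.208 and 0.299 TPM in KO17, and was listed at 0 in all WT22 and WT15 libraries. Neither passed the filter within a line, so neither was tested there, and values this low carry no order between groups. Of 16 myeloid markers, 13 stayed under 1 TPM in every library, and Adgre1, Elane, Mpo, Ngp, Camp, Ltf and Retnlg were listed at 0 in all 18.

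Outside the 10, 8 further S100 symbols were in the table, and 4 of them were tested in 1151, with 1 higher and 1 lower. Of all genes tested there, 34.0% were higher and 27.0% lower. S100a7a, the mouse relative of human psoriasin, had 220, 217 and 232 TPM in 1151 KO, against 34.0, 32.7 and 34.3 TPM in 1151 MCU. It rose by 6.63-fold in the KO cells (log2 fold change 2.69, SE 0.052, adjusted p = 2.23e-07), and so ranked above S100a4 there while it ranked below S100a16 and S100a4 in the MCU cells. S100g, the vitamin D-dependent intestinal calcium-binding protein calbindin, had 0.212, 0.489 and 0 TPM in 1151 KO, against 1.80, 4.03 and 3.89 TPM in 1151 MCU. Its levels were near the floor but did not overlap (log2 fold change -1.75, SE 0.26, adjusted p = 0.00115), and it overlaps Ctps2 on the opposite strand, with the strand setting of the libraries not given. S100a3, whose gene model overlaps S100a2 and Gm42674, was 18.8 TPM on average in 1151 KO, against 21.5 TPM in 1151 MCU, and did not pass (log2 fold change -0.23, adjusted p = 0.352). S100z, with 5.38, 3.86 and 1.54 TPM in 1151 KO, against 2.04, 1.89 and 0 TPM in 1151 MCU, overlapped between the groups and did not pass (log2 fold change 1.05, adjusted p = 0.113). Without 1151 KO replicate 3 it was called (1.43, adjusted p = 0.0441), within a range of adjusted p of 0.00386 to 0.281 over its alternatives. S100a2, S100a5 and S100b were low, and S100a7l2 was listed at 0 in every library.

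**Figure D3:**
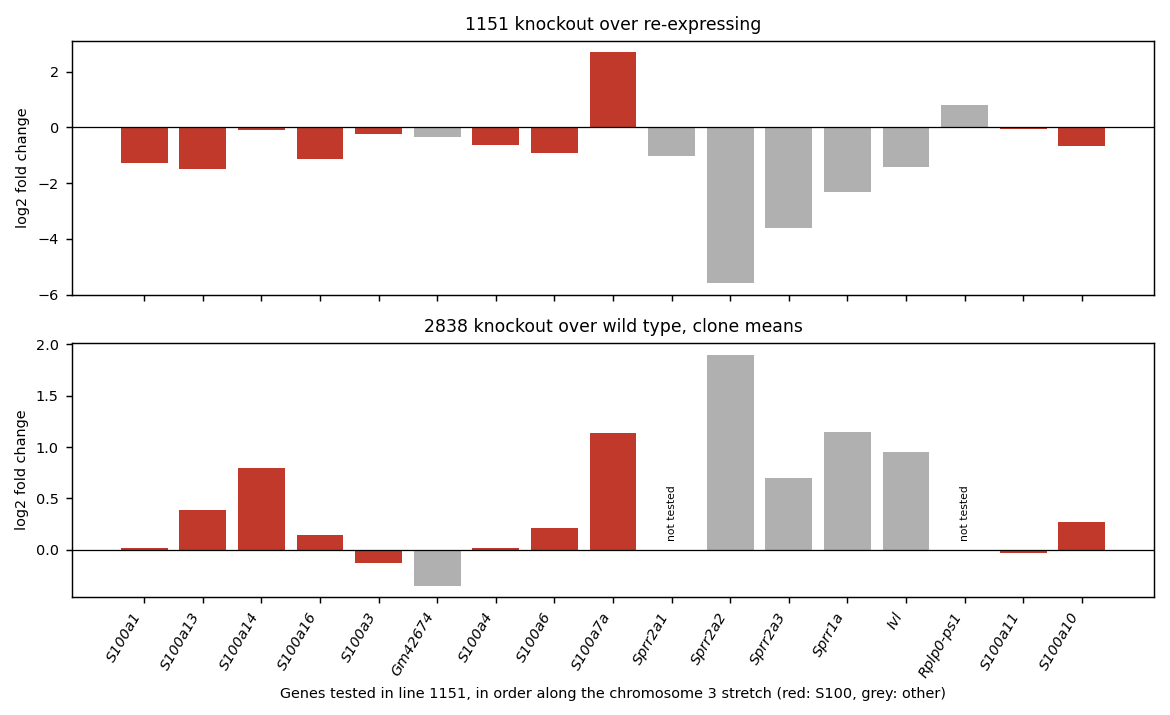
Log2 fold changes of TPM + 1 of the 17 genes tested in 1151 along the chromosome 3 stretch, in genome order but not to scale, for 1151 KO over MCU (upper) and 2838 KO over WT clone means (lower), with S100 genes in red and others in grey. In 1151 the bars point down except S100a7a and Rplp0-ps1; in 2838 most point up, and genes below the filter there are marked as not tested.

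Along the stretch from S100a1 to S100a10, 10 S100 genes were tested in 1151, of which 6 were lower and S100a7a was higher. Over all genes tested in 1151, 27.0% were lower and 34.0% higher, and each count in this paragraph is to be read against that. The 7 other genes tested in the stretch included 5 that were lower and none higher, with a median log2 fold change of -1.41. These 5 are the members of the epidermal differentiation complex that passed the filter, of 21 in the table: Sprr2a2 (-5.59), Sprr2a3 (-3.60), Sprr1a (-2.32), Ivl (-1.41) and Sprr2a1 (-1.03), which encode proteins of the cornified envelope. Sprr1a was 43.6 ± 6.10 TPM in 1151 KO, against 219 ± 3.59 TPM in 1151 MCU (SD, n = 3 each). The Sprr2a genes are near-identical copies, so their separate values are uncertain. Within 1 Mb on either side of the stretch, 26 tested genes included 6 higher and 8 lower, with a median of -0.07.

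The second comparison set clones 42 and 17 against clones 22 and 15 of line 2838. With the clone means as replicates (2 against 2), none of the 8 S100 genes tested passed (limma), and 1 of them, S100a14, had an unadjusted p under 0.05. Over all 11795 genes tested only 0.0763% passed, and 662 had an unadjusted p under 0.05. The S100 genes had a median log2 fold change of 0.18, against 0.075 over all genes, and 7 of 8 were positive. Nor was any S100 gene called in all 4 pairs of a knockout with a wild-type clone, a rule that called 1.01% of all genes. S100a14, the gene nearest to a call on clone means, had a log2 fold change of 0.79 with a 95% interval of 0.04 to 1.55 (adjusted p = 0.862). For S100a1 the interval was -0.42 to 0.45, for S100a16 it was -0.34 to 0.63, and for S100a10 it was -0.20 to 0.74. The interval for S100a13 was -0.23 to 1.01, for S100a6 it was -0.50 to 0.93, and for S100a4 it was -0.75 to 0.79. None of the 6 intervals reached the log2 fold change measured for its gene in 1151, except that of S100a4. Setting an interval against a single value does not test a difference between the lines. That test is the third comparison below.

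**Figure D4:**
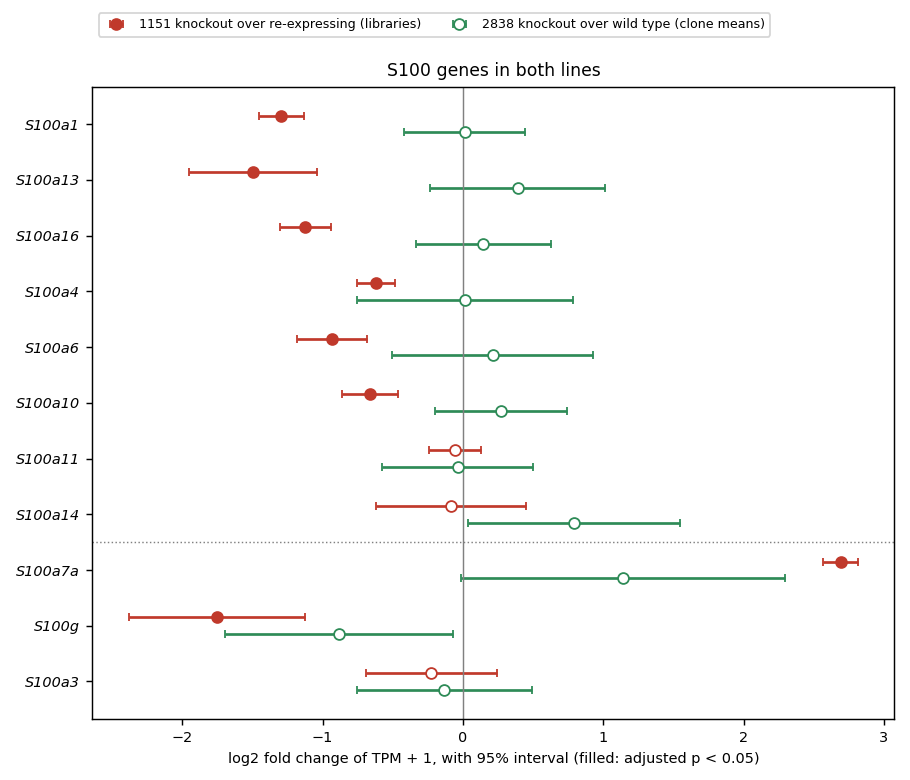
Log2 fold changes of TPM + 1 with 95% intervals for 8 of the 10 S100 genes (above the dotted line) and S100a7a, S100g and S100a3 (below it), for 1151 KO over MCU across libraries (red) and 2838 KO over WT across clone means (green). Filled points passed at an adjusted p under 0.05, which in 2838 was none. The 2838 intervals of S100a1, S100a13, S100a16, S100a6 and S100a10 lie above the 1151 values. That is not a test of a difference between the lines.

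What moved in 2838 was single clones. S100a14 had 20.6, 14.7 and 13.8 TPM in KO42 and 34.8, 35.2 and 29.5 TPM in KO17, against 13, 12.1 and 10.4 TPM in WT22 and 13.4, 15.3 and 14 TPM in WT15. The KO17 libraries stood above all other libraries of the line, and KO42 overlapped WT15. KO17 exceeded WT22 (2.80-fold, log2 fold change 1.41, adjusted p = 5.87e-04) and WT15 (2.33-fold, 1.16, adjusted p = 0.00134). KO42 lay below KO17 (log2 fold change -0.99, adjusted p = 0.00219). These calls held when any of the 12 libraries was left out and with each scaling tried. KO17 is also the knockout-labelled clone whose Mcu RNA was not low, and a link of that to S100a14 was not tested.

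S100a4 split the clones in another way. It had 423, 454 and 397 TPM in KO42 and 279, 252 and 294 TPM in KO17, against 456, 403 and 644 TPM in WT22 and 179, 230 and 303 TPM in WT15. KO42 and WT22 were high and overlapped each other, and KO17 and WT15 were low and overlapped each other, so the split cut across the labels. WT22 exceeded WT15 by 2.11-fold (log2 fold change 1.08, adjusted p = 0.0201), a difference between clones with the same label, in a comparison that called 1.92% of all genes, 0.577% as higher. That call was lost without WT15 replicate 1 (0.89, adjusted p = 0.0628) or replicate 2 (1.07, adjusted p = 0.0807), with median-of-ratios scaling (adjusted p = 0.0525) and centred per chromosome (adjusted p = 0.0552). KO42 lay above KO17 with no overlap, but the difference did not pass (0.63, adjusted p = 0.0517). Between KO42 and WT15 the log2 fold change was 0.87 (adjusted p = 0.0149), and between KO17 and WT22 it was -0.84 (adjusted p = 0.0296).

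S100a6 had 12571, 13652 and 13055 TPM in KO42 and 11991, 10742 and 11922 TPM in KO17, against 11992, 10816 and 20943 TPM in WT22 and 7157, 7958 and 9162 TPM in WT15. WT15 was the low clone, and WT22 overlapped both knockout clones. S100a13 had 275, 301 and 265 TPM in KO42 and 289, 267 and 287 TPM in KO17, against 264, 231 and 402 TPM in WT22 and 113, 172 and 200 TPM in WT15. Here too WT15 lay below every other clone, while the knockout clones were level with each other. Against WT15, S100a13 was higher in KO42 (log2 fold change 0.83, adjusted p = 0.0324) and in KO17 (0.83, adjusted p = 0.0349), and S100a6 was higher in KO42 (0.70, adjusted p = 0.0489).

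S100a10 had 1011, 1043 and 1045 TPM in KO42 and 1195, 1148 and 1262 TPM in KO17, against 944, 855 and 1159 TPM in WT22 and 857, 842 and 918 TPM in WT15. KO17 was the high clone, although WT22 replicate 3 reached into its range. S100a16 had 154, 149 and 136 TPM in KO42 and 178, 172 and 184 TPM in KO17, against 153, 148 and 190 TPM in WT22 and 127, 127 and 138 TPM in WT15. KO17 again had the highest mean and WT15 the lowest, but WT22 replicate 3 lay above every KO17 library and KO42 overlapped WT15. The difference of KO17 from WT15 passed for S100a10 (0.46, adjusted p = 0.0214) and S100a16 (0.44, adjusted p = 0.0265). S100a1 had 295, 337 and 300 TPM in KO42 and 307, 303 and 308 TPM in KO17, against 290, 288 and 384 TPM in WT22 and 319, 271 and 292 TPM in WT15, and S100a11 lay between 4272 and 7372 TPM in the 12 libraries. For S100a1 and S100a11 the clones overlapped throughout, and no pair of clones was called.

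In counts, the S100 genes called were 0 of 8 between KO42 and WT22 (1 at an unadjusted p under 0.05; 10.3% of all genes called, limma) and 3 higher between KO42 and WT15 (12.3% of all genes called, 6.07% higher). Between KO17 and WT22 there were 1 higher and 1 lower (6.49% of all genes, 3.79% higher and 2.70% lower). Between KO17 and WT15 there were 4 higher (10.7% of all genes, 5.18% higher), and between KO42 and KO17 there was 1 lower (17.2% of all genes, 8.99% lower). The pairs share clones, so their calls are not independent. The calls other than those of S100a14 lay near the threshold and were lost when some single libraries were left out, while every fold change kept its direction. That of S100a6 between KO42 and WT15 was lost without any of 9 of the 12 libraries (adjusted p up to 0.149, log2 fold change 0.62 to 0.79), and kept without WT22 replicate 1, 2 or 3. Those of S100a13 were lost without any of 8 (up to 0.112 in KO17 and 0.113 in KO42, with log2 fold changes of 0.60 to 1.00 and 0.59 to 1.00): replicates 1 and 2 of WT15 and every library of KO17 and KO42. Between KO17 and WT15, the call of S100a10 was lost without any KO17 library or WT15 replicate 1 or 2 (up to 0.0984, log2 fold change 0.43 to 0.50), and that of S100a16 without any library of either clone (up to 0.107, 0.42 to 0.48). The call of S100a4 between KO42 and WT15 was lost without WT15 replicate 2 or KO42 replicate 1 or 2 (up to 0.0659, 0.68 to 1.06). Between KO17 and WT22 it was lost without WT22 replicate 1, any KO17 library or KO42 replicate 1 (up to 0.128, -0.98 to -0.64). Some of these libraries are in neither clone of the pair and act only through the shared estimate of the spread. Without WT22 replicate 3 more genes were called: 4 between KO42 and WT15, 4 between KO17 and WT22 and 5 between KO17 and WT15, and 0 between KO42 and WT22. Comparisons with WT22 also carried an offset, with a median log2 fold change over all genes of 0.15 for KO42 and 0.15 for KO17, which median-of-ratios scaling brought to 0.0062 for KO42. Under that scaling 0 S100 genes were called between KO42 and WT15, and S100a14 was the 1 gene called between KO17 and WT22 and between KO17 and WT15. The fold changes moved little against WT15 (0.87 for S100a4 and 0.82 for S100a13 in KO42, and 0.81 for S100a13 in KO17), and that of S100a4 between KO17 and WT22 was larger in size, at -1.01 (adjusted p = 0.0539), though not called.

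**Figure D5:**
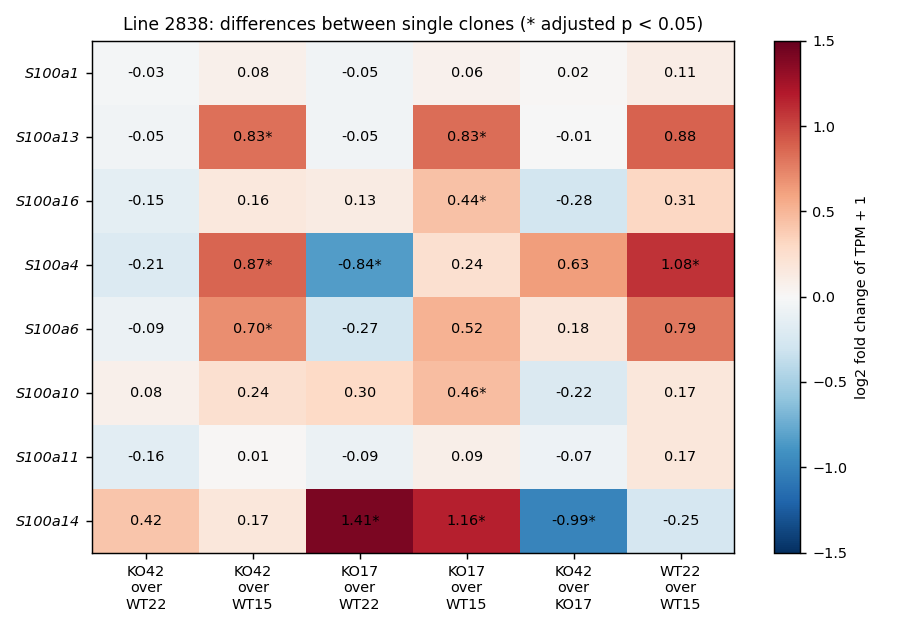
Log2 fold changes of TPM + 1 between single 2838 clones for 8 of the 10 S100 genes, with red for higher and blue for lower in the first-named clone and an asterisk for an adjusted p under 0.05. S100a14 is marked wherever KO17 is compared, and S100a4 is high in KO42 and WT22 whichever label they carry.

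S100a7a showed a single library that stands apart. It had 41.1, 45.1 and 47.7 TPM in KO42 and 34.6, 35.4 and 38.1 TPM in KO17, against 7.57, 7.79 and 9.78 TPM in WT22 and 190, 15.0 and 15.7 TPM in WT15. Apart from WT15 replicate 1, both knockout clones lay above both wild-type clones. With all libraries the log2 fold change on clone means was 1.14 (adjusted p = 0.894) and the gene was not called in all pairs (highest adjusted p = 0.997). Without WT15 replicate 1 it was 1.73 on clone means (adjusted p = 0.154), and the gene was called in all 4 pairs (highest adjusted p = 0.0015).

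The third comparison asked whether the effect in 1151 differed from that in 2838, as an interaction on the 6 group means. Line 1151 gives a single mean per label, so its own spread does not enter. The spread between 2838 clones of the same label is assumed to hold for 1151. None of the 9 S100 genes tested passed (limma; S100a8 passed the filter over all 18 libraries), 4 had an unadjusted p under 0.05, and 1.10% of all 12458 genes passed, with 1738 at an unadjusted p under 0.05. The estimates were negative for all 9, with a median of -0.93. That of S100a11 was only -0.02, and the sign for S100a8 (-0.39, 95% interval -1.18 to 0.41) carries no weight, as its levels were at the floor. The 4 genes were S100a1 (-1.31, 95% interval -1.88 to -0.73, adjusted p = 0.106), S100a16 (-1.27, -2.17 to -0.37, adjusted p = 0.236), S100a10 (-0.93, -1.71 to -0.14, adjusted p = 0.293) and S100a13 (-1.89, -3.49 to -0.28, adjusted p = 0.296). For S100a6 the estimate was -1.15 (-2.94 to 0.65, adjusted p = 0.527), and for S100a4 it was -0.64 (-2.84 to 1.57, adjusted p = 0.782). A difference between the lines was therefore not shown for any of these genes after adjustment.

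Proteins that S100 proteins bind were read from a list of 20, of which 16 were tested in 1151, with 7 higher and 5 lower and a median log2 fold change of 0.19. Over all genes 34.0% were higher and 27.0% lower, with a median of 0.055, so these counts are near the background. Anxa2, encoding the annexin that S100a10 binds, was 1497 ± 46 TPM in 1151 KO, against 2355 ± 57 TPM in 1151 MCU (SD, n = 3 each; log2 fold change -0.65, adjusted p = 1.59e-04). Anxa1, the partner of S100a11, was also lower (-1.39, adjusted p = 6.22e-06) although S100a11 did not pass, and Myh9, the myosin bound by S100a4, was higher (1.71, adjusted p = 3.11e-06) where S100a4 was lower. These 3 were picked out after their values were seen. Fgf1, the growth factor released with S100a13, was 10.7 ± 1.74 TPM in 1151 KO, against 37.5 ± 0.60 TPM in 1151 MCU (-1.73, adjusted p = 1.93e-05). Others rose: Ahnak, a large scaffold that binds S100a10 with annexin A2, was 178 ± 8.62 TPM in 1151 KO, against 46.4 ± 1.42 TPM in 1151 MCU (1.92, adjusted p = 1.01e-06). Dlc1, a tumour suppressor bound by S100A10 in human cells, was 5.74 ± 0.28 TPM in 1151 KO and listed at 0 in all 1151 MCU libraries.

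Anxa6, an annexin bound by S100 proteins, was 97.1 ± 2.98 TPM in 1151 KO, against 26.7 ± 2.81 TPM in 1151 MCU (1.83, adjusted p = 5.63e-06). It was the list member called on 2838 clone means, where it went the other way (-1.74, adjusted p = 0.0355), and its interaction passed (3.58, adjusted p = 0.0355). Anxa11, an annexin bound by S100a6, was 55.5 ± 2.13 TPM in 1151 KO, against 185 ± 10.6 TPM in 1151 MCU. In 2838 it was 177 ± 12.1 TPM in KO42 and 160 ± 4.05 TPM in KO17, against 86.0 ± 19.5 TPM in WT22 and 91.5 ± 17.8 TPM in WT15, higher in all 4 pairs (highest adjusted p = 0.0148), and its interaction also passed (-2.65, adjusted p = 0.0408). On 2838 clone means 0 list members were higher and 1 lower of 17, and by all pairs 1 was higher and 1 lower. The interactions of Anxa6 and Anxa11 rest on the spread between 2838 clones, assumed to hold for 1151.

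Other EF-hand proteins were read from a list of 31. In 1151, 24 were tested, with 6 higher and 12 lower and a median log2 fold change of -0.21, against 34.0% higher and 27.0% lower and a median of 0.055 over all genes. Tesc, encoding tescalcin, was 0.431 ± 0.280 TPM in 1151 KO, against 10.7 ± 1.26 TPM in 1151 MCU (-3.04), and Calml4, a calmodulin-like protein, was 3.16 ± 0.503 TPM in 1151 KO, against 18.8 ± 2.12 TPM in 1151 MCU (-2.26). Gca, encoding grancalcin, was higher (1.27), and Ncald, a neuronal calcium sensor, was lower (-0.85). In 2838, 0 of 24 were called on clone means or in all pairs. Genes of the epidermal differentiation complex, lower in 1151, were higher in all pairs in 2838 for 3 of 4 tested: Sprr2a2 (1.90, highest adjusted p = 0.00394), Sprr1a (1.15, 0.00673) and Ivl (0.95, 0.0234). That rule called 1.01% of all genes, and 0 of 4 passed on clone means. Sprr1a was 332 ± 25.1 TPM in KO42 and 430 ± 17.2 TPM in KO17, against 153 ± 6.16 TPM in WT22 and 192 ± 51.9 TPM in WT15 (SD, n = 3 each).

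Markers of other cells also moved in 2838. Keratinocyte markers summed to 34.7 to 37.7 TPM in KO42 and 16.4 to 19.9 TPM in KO17, against 8.70 to 12.6 TPM in WT22 and 4.02 to 6.55 TPM in WT15, with 8 of the 10 under 1 TPM throughout and Krt6b, Krt17 and Krtdap listed at 0. Acinar markers summed to 9.21 to 12.2 TPM in KO42 and 11.5 to 14.2 TPM in KO17, against 16.5 to 24.6 TPM in WT22 and 22.0 to 29.3 TPM in WT15, with 7 of the 8 under 1 TPM throughout and Cela2a, Cpa1, Cpb1, Pnlip and Amy2a5 listed at 0. Myeloid markers, of which 13 of 16 were under 1 TPM throughout, summed to 14.8 to 17.9 TPM in KO42 and 14.7 to 15.8 TPM in KO17, against 10.7 to 13.7 TPM in WT22 and 9.88 to 10.9 TPM in WT15, with no overlap between the labels. The epithelial sum was 6143 to 6637 TPM in KO42 and 7325 to 7444 TPM in KO17, against 5953 to 6687 TPM in WT22 and 4877 to 5311 TPM in WT15, so that KO17 was highest and WT15 lowest, as in the group means of S100a10 and S100a16. The keratinocyte sum rested on Krt14 and Sbsn, and Cela1 was the 1 acinar marker that reached 1 TPM. Of the myeloid markers, Cd68 and Fcgr3 were tested. None of these genes passed on clone means (limma; for Cela1 -0.86, adjusted p = 0.598), while Krt14 was higher in all 4 pairs (2.26, highest adjusted p = 0.0336). The part of these marker sums in the S100 differences was not tested.

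Within 2838, the S100 genes varied together only in part. Over its 12 libraries, which share 4 clones, log2 values of S100a6 and S100a13 had a Pearson r of 0.93 (0.94 without WT22 replicate 3), those of S100a4 and S100a6 an r of 0.88 (0.82), and those of S100a10 and S100a16 an r of 0.87 (0.87). S100a1 and S100a13, the head-to-head pair, had an r of 0.47 there (0.15 without that library).

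Over all 18 libraries, with each line centred on its own mean, the genes whose log2 values followed each S100 gene most closely were sought among 9345 genes with a mean of at least 5 TPM. These correlations are a description, since the libraries share 6 groups, and the split between the 1151 groups can dominate them. Mgst2, named below with S100a1, was 3.73 TPM in 1151 KO, against 34.6 TPM in 1151 MCU. In the 2838 groups it averaged 234 to 323 TPM. S100a16 was nearest to Stard10, a lipid transfer protein (r = 0.98), and Agpat2, an enzyme of phospholipid synthesis (0.97). S100a1 was nearest to the glutathione transferase gene Mgst2 (0.97) and the protease inhibitor gene Spint2 (0.97), and S100a6 to Lamtor1, a lysosomal anchor (0.96), and Cavin3, a caveolar coat protein (0.94). S100a10 was nearest to the ductal keratin gene Krt19 (0.95) and Exoc3l4 (0.94), and S100a13 to the superoxide dismutase gene Sod1 (0.95) and the mitochondrial ribosomal gene Mrpl27 (0.95). S100a4 was nearest to the RNA export factor Alyref (0.92) and the calcium channel gene Orai1 (0.90), and S100a14 to Jagn1 (0.86) and Atg7 (0.85), an autophagy gene. S100a11 had Anapc11 (0.83) and Timm17b (0.81), which dropped to 0.65 and 0.62 without WT22 replicate 3. For S100a8 the nearest were Idnk (0.64) and mt-Atp6 (0.64), and for S100a9 Hemk1 (0.77) and Nedd4l (0.73), with S100 values near 0.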

How the data were processed

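The authors deposited 1 table of TPM with 35642 gene symbols. The submitters' processing notes name Salmon, DESeq2 and the build mm10. Versions and annotation are not given in the sources used here. TPM scale each library to a fixed total, so abundant genes such as S100a6 press on all others. A further engineered allele that all cells share is not reported here. Columns were matched to samples by library names in the labels.

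From these, log2(TPM + 1) was fitted in limma 3.58.1 (R 4.3.3) with a variance trend, over all genes with at least 1 TPM in 3 libraries, with Benjamini-Hochberg adjustment and a threshold of 0.05. This pseudocount of 1 understates changes of low genes. The 1151 fit used 6 libraries. In 2838, clone means were the main unit, and single clones were compared across libraries as a second reading. The interaction used 6 group means, with the spread taken from 2838 clones of the same label. The code of the fits was run on simulated data with known changes. Those data held no spread between 1151 populations, so they say nothing about that limit of the 1151 calls. The members and the gene lists were chosen with earlier results of these data known.

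Named were the 10 members, other S100 genes reaching 1 TPM, up to 4 called genes of each list with the largest change in each line, and the 2 genes most like each member. The genes of the marker lists so named are given here with their log2 fold changes. In 1151 they were Sbsn (1.21, keratinocyte), Krt7 (2.55), Cldn4 (2.49), Krt19 (-1.10) and Sox9 (0.86, epithelial), and Cdh5 (-2.56), Kdr (2.43) and Egfl7 (-1.60, endothelial). In all 2838 pairs they were Krt14 (2.26) and Krt7 (0.95). Positions came from GENCODE M21, in which 33952 symbols matched. Same-numbered libraries of different groups did not deviate together, so no pairing was used. Alternatives were another pseudocount (0.1), no filter, a mean of at least 5 TPM, other scalings, no trend, a replicate block and leaving out each library or clone.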

Additional observations from a re-analysis of the deposited data

How the results depend on the processing

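The 6 calls in 1151 held under every alternative run (6 to 6 without each library), and 0 calls remained in 2838 over all pairs (0 to 0). Same-numbered libraries had correlations of -0.15 to -0.03 in 1151 and -0.15 to 0.20 in 2838; with a replicate block the 1151 count was 6, the all-pairs count 0 and WT22 over WT15 1, and S100z, outside the 10, was called in 1151 (1.05, adjusted p = 0.00386; range 0.00386 to 0.281). For the counts that changed, the cause was not tested. The interaction count was 1 with no filter (S100a1, -1.31, adjusted p = 0.0432, range over its alternatives 0.0432 to 0.195). On clone means the count was 0 to 1 leaving out a clone, the 1 being S100a14 without clone 42 (log2 fold change 1.29, adjusted p = 0.00776, range 0.00776 to 1.00), where KO17 alone stands against the wild-type clones and is assumed to vary as they do. Between KO42 and KO17 it was 2 with quantile normalization (S100a4 added, 0.64, adjusted p = 0.0253) and 2 with the replicate block (0.63, 0.0417; range 0.00808 to 0.168), and 1 to 4 without each library, 4 being without WT22 replicate 3. Between WT22 and WT15 it was 0 with median-of-ratios scaling (S100a4 1.24, adjusted p = 0.0525) and 0 centred per chromosome (1.25, 0.0552; range 0.0159 to 0.0807), and 0 to 2 without each library: 0 without WT15 replicate 1 or 2, and 2 without WT22 replicate 3. Read depth was unknown, so no counting error could be given, and levels under about 1 TPM carry no order.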
